A study of Mus musculus with 11 samples.

Results

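Genes of lipoprotein handling were examined in the chromatin accessibility maps of embryonic dopaminergic and serotonergic neurons: the lipases Lpl, Lipc and Lipg, the receptors Lrp1, Vldlr and Lrp8, and the ligand Apoe. They are 7 of the 22380 protein-coding genes of the annotation. The genes were chosen by the contrast between dopaminergic (DA) and serotonergic (5-HT) neurons in these same data, in which Lpl carried a high-scoring region found in the DA libraries alone, so the values of that contrast are given below as a description and were not tested. The regions assigned to the genes were those that overlapped a gene body or the 20 kb on either side of it, 61 of 131942 regions in all.

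Lipases of this family cut triglycerides and phospholipids of lipoprotein particles. The particles and their remnants are taken up by receptors of the LDL receptor family, which bind apolipoprotein E. In the developing brain, Vldlr and Lrp8 are also the receptors of Reelin, which guides migrating neurons.

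The study sorted DA and 5-HT neurons from E14.5 mouse embryos and mapped open chromatin by ATAC-seq, which tags DNA that a transposase can reach. DA neurons were GFP-positive cells of the ventral mesencephalon of TH-GFP embryos, a transgenic line kept on C57BL/6J in which the Th promoter drives GFP (3 libraries, from day 14.5). 5-HT neurons were YFP-positive hindbrain cells of Mash1-CRE x ROSA YFP embryos of the same age (2 libraries), in which Cre marks cells with a history of Mash1, a progenitor gene. The authors checked the sorts with Th for DA and Tph2 for 5-HT. By their account most, but not all, cells of the DA sort held Th. GABAergic markers were high there, which the paper proposes to be a slight contamination. Nearly all cells of the 5-HT sort held Tph2, but genes of DA and GABAergic neurons were expressed there too. In both groups the fathers were transgenic and the mothers wild-type Swiss mice, and embryos were pooled before each sort.

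For each library and region, the deposited data hold a score, which is 0 where the library has no peak. Where scores of all libraries are listed, DA replicates 1, 2 and 3 come first and 5-HT replicates 1 and 2 last. In this order the libraries had 52861, 93055, 94351, 38772 and 22879 peaks. Every DA library had more peaks than either 5-HT library. By the methods of the paper, every DA library was also made from more sorted cells than either 5-HT library. Peak number, number of sorted cells and cell type therefore cannot be told apart. The read depth behind these peaks is unknown. Since the scale of the score between libraries is also unknown, the percentile of a score among the peaks of its own library is added for the Lpl promoter regions and for some of the others. A region with peaks in all 3 DA libraries and none in 5-HT libraries was called DA-only, and a region with peaks in all 5 all-library.

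The sorted populations were compared with marker genes at their promoters, taken as 1 kb upstream to 100 bp downstream of any annotated transcription start site (TSS). Of 11 DA neuron markers, 11 had a promoter region, and 4 of them (Aldh1a1, Ddc, Lmx1a and Th) had a DA-only region there. The percentiles of the DA-only region in the DA libraries were 90.5, 91.7 and 89.3 for Th. They were lower for Aldh1a1 (32.9, 57.1 and 75.1), Ddc (50.8, 42.1 and 54.4) and Lmx1a (47.8, 66.4 and 51.8). An all-library promoter region was found for 6 of the 11 (Ddc, En1, Foxa2, Nr4a2, Pitx3 and Ret), so Ddc had both. The highest promoter scores of the 11 markers summed to 77.5, 80.6, 71.1, 34.3 and 23.0. Over all protein-coding genes, 65.1% had a promoter region, 3.57% a DA-only one and 48.3% an all-library one. Of 9 serotonergic markers, 9 had a promoter region, of which 0 had a region found in both 5-HT libraries and in no DA library. Such a region was rare at any promoter, found for 0.0626% of protein-coding genes, so a count of 0 says little about the 5-HT libraries. The highest promoter scores of the serotonergic markers summed to 37.5, 48.0, 41.8, 33.5 and 17.9, led by Tph2, the marker of the 5-HT sort, with 9.91, 7.59, 11.1, 7.09 and 3.59. The sum and the Tph2 score were higher in every DA library than in either 5-HT library, while the groups overlapped in the percentile of Tph2 (90.5, 80.9 and 95.2 for DA, 87.5 and 46.0 for 5-HT). A promoter region of Fev, a defining factor of 5-HT neurons, at chr1:74932372-74932507 had a score of 3.88 in 5-HT replicate 1 and 0 in the other libraries. Another Fev promoter region had 3.37 in 5-HT replicate 1, the lowest score of that library, and 0 in the others. The serotonin transporter gene Slc6a4 had a DA-only promoter region with scores of 4.80, 6.56 and 3.76. Among the peaks of the DA libraries these scores had percentiles of only 43.7, 74.4 and 43.5. A promoter region of Gata3, a factor of 5-HT neurons, had scores of 6.98, 4.52, 4.65, 5.13 and 7.51 and percentiles of 73.6, 51.5, 61.7, 65.1 and 95.5, highest in 5-HT replicate 2. Another Gata3 region had scores of 0, 0, 3.56, 5.17 and 3.24.

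Markers of cells in which Lpl and Apoe are well known, microglia and vessels, were looked up in the same way. Of 7 microglial markers, 2 had a promoter region, and Aif1, Csf1r, Cx3cr1, Spi1 and Trem2 had no region in any library. The highest promoter scores of the microglial genes summed to 3.52, 3.97, 3.14, 4.31 and 0, with P2ry12 the highest on average. Of 7 endothelial markers, 4 had a promoter region, and Cdh5, Pecam1 and Tie1 had no region. Their summed scores were 13.0, 16.3, 16.2, 13.2 and 0 over the libraries, led by Cldn5 with 4.86, 4.94, 5.22, 4.62 and 0. Of 5 pericyte markers, 4 had a promoter region, led by Kcnj8, with sums of 9.09, 17.6, 13.8, 4.38 and 3.06, and Abcc9 had a DA-only one. Of 10 markers of radial glia and astrocytes, 10 had a promoter region and 6 an all-library one, led by Hes1, with sums of 44.4, 55.4, 50.3, 39.9 and 25.5. The 3 GABA neuron markers had sums of 14.9, 13.9, 12.9, 13.3 and 6.60, with a DA-only region at Slc32a1, and the glutamate neuron marker Slc17a6 had scores of 9.97, 12.9, 12.8, 3.65 and 0, with Slc17a7 without a region. The part of other cell types in the scores of the lipoprotein genes was not tested.

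Of the 61 regions at the 7 genes, 9 (14.8%) were DA-only, against 13.4% of all regions. Another 9 (14.8%) were all-library, against 12.8% of all regions. Both shares lay close to those of the whole map, and nothing is read from them about these genes. No region (0 of 61) had peaks in both 5-HT libraries and in no DA library, against 0.389% of all regions, and 39 regions (63.9%) had no 5-HT peak, against 67.5%. A peak in a single library was found for 23 regions (37.7%, against 44.5% of all regions), 13 of them in DA replicate 2. With the 22879 highest-scoring peaks of every library kept, as many as the smallest library holds, 20 of the regions held a peak, of which 1 was DA-only (6.94% of all regions with a peak at that number) and 5 were all-library (27% of all such regions). Another 2, the Lrp1 promoter and a Lipg intronic region, then had peaks in both 5-HT libraries and in no DA library (5.79% of all such regions). 5-HT replicate 2 keeps all of its peaks at that number. The DA-only call at equal peak numbers was that of the Lpl region, and the other 8 regions lost it. The all-library call was lost by 4 regions, at the Lpl coding promoter, the Lrp1 promoter, the start of Lrp8-003 and exon 3 of Lrp8. It was kept at the Vldlr promoter, at the main Lrp8 start and at promoters of the neighbouring genes Tomm40, Magoh and 0610037L13Rik.

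**Figure D1:**
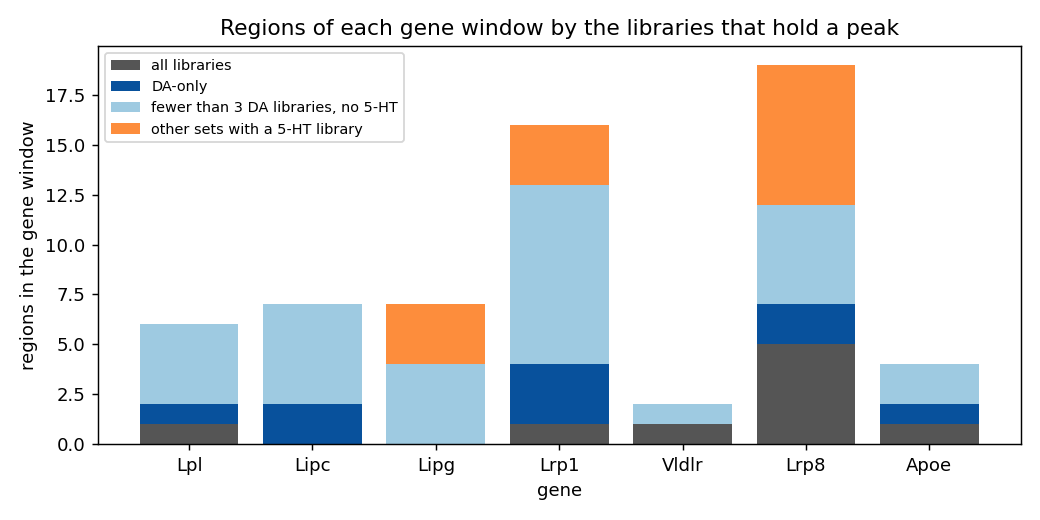
Number of regions in the window of each gene (gene body and 20 kb on each side), stacked by the set of libraries that hold a peak. Lrp8 has 19 regions and Lrp1 has 16, while Vldlr has 2, and DA-only regions lie at Lpl, Lipc, Lrp1, Lrp8 and Apoe.

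The regions were spread unevenly over the genes. Lrp8 had 19 regions (16.6 per 100 kb of window) and Lrp1 had 16 (13.0 per 100 kb), more per length than 95.8% and 89.7% of protein-coding genes. Lipg had 7 regions (11.3 per 100 kb), Apoe had 4 (9.29 per 100 kb) and Lpl had 6 (8.96 per 100 kb), all above the median gene at 5.91 per 100 kb. Lipc, the longest of the genes, had 7 (3.61 per 100 kb) and Vldlr had 2 (2.57 per 100 kb), both below that median. By position, 10 of the regions lay at a promoter of their own gene, 7 at the promoter of a neighbouring gene, 22 in introns, 7 in exons, 7 upstream and 8 downstream.

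Lpl encodes lipoprotein lipase, which releases fatty acids from triglyceride-rich particles. Its DA-only region at chr8:71414263-71414939 had scores of 13.9, 14.8 and 15.8 for DA (mean 14.8 ± 0.980, SD, n = 3) and none for 5-HT. The percentiles of these scores among the peaks of their libraries were 97.4, 97.1 and 98.7. The region was thus among the highest-scoring peaks of every DA library and was listed at 0 in both 5-HT libraries. It also belonged to the 10000 highest-scoring peaks of all 3 DA libraries.

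This region did not lie at the start of the coding transcripts of Lpl. Its centre was 10.2 kb inside the gene, in the intron between exon 2, which ends at 71411502, and exon 3, which starts at 71416494. It was assigned to a promoter because a transcript annotated as noncoding, Lpl-004, starts within it at 71414643 and shares exons with the coding transcripts further downstream. The coding transcript Lpl-001 starts at 71404390, and the region over that start, chr8:71403991-71405700, was an all-library region. Its scores were 4.62, 4.75 and 4.65 for DA (mean 4.67 ± 0.0670, SD, n = 3) and 4.05 and 3.48 for 5-HT. The coding promoter therefore had a peak in every library, and the high-scoring DA-only region marked an internal position. At equal peak numbers the coding promoter had a peak in 0 DA libraries and 1 5-HT library. The label of a DA-only Lpl promoter holds for the noncoding start only.

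**Figure D2:**
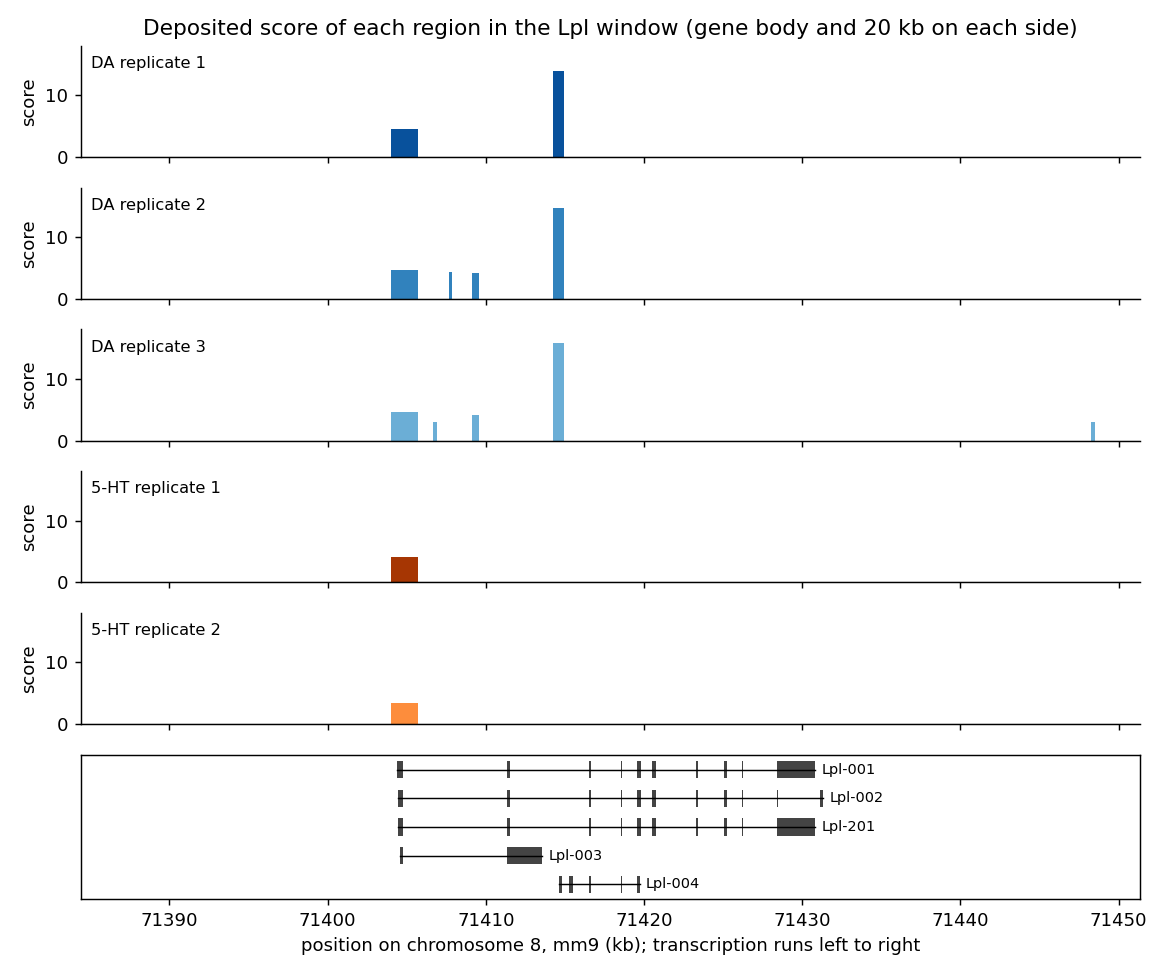
Map of the Lpl window on chromosome 8 of mm9, with position in kb on the x axis and the deposited score on the y axis, a bar for each region with a peak in the library and the annotated transcripts at the bottom, exons as boxes. The region at the start of the coding transcripts has a bar in all 5 libraries, and the region at the start of Lpl-004 has a bar of 13.9 to 15.8 in the 3 DA libraries and none in the 5-HT libraries.

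The other 4 regions of the Lpl window scored at most 4.42 and had no 5-HT peak, a trait of 67.5% of all regions. Intronic regions had a score of 3.08 in DA replicate 3 (chr8:71406690-71406892), of 4.42 in DA replicate 2 (chr8:71407690-71407854), and of 4.18 and 4.16 in DA replicates 2 and 3 (chr8:71409129-71409567). The downstream region chr8:71448265-71448504, 16.9 kb from the gene, had a score of 3.09 in DA replicate 3. None of these was found in DA replicate 1, the DA library with the fewest peaks. Just outside the window, 23.0 kb before the gene, lay a region with scores of 4.47, 3.86 and 0 for DA and 0 in both 5-HT libraries.

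A DA-only region at any annotated promoter was found for 1 of the 7 genes (Lpl), against 3.57% of protein-coding genes, and this is the value on which the genes were selected. At the promoters of coding transcripts alone it was found for 0 of the 7, against 2.84%. An all-library region at a promoter was found for 4 of the 7 (Lpl, Lrp1, Vldlr and Lrp8), against 48.3%. Like Lpl, 272 of the 798 genes with a DA-only promoter region (34.1%) also had an all-library region at a promoter.

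The sequence of the central 200 bases of the Lpl DA-only region is shown because no other of the chosen genes had a DA-only promoter region. It runs from chr8:71414502-71414701 (mm9, plus strand, the strand of the gene) and covers the start of Lpl-004. The capitals mark an E-box (CAGCTG) and a GATA core on the other strand (AGATAA, read here as TTATCT), which are found in the central 200 bases of 18.9% and 9.21% of all regions and of 23.9% and 10.5% of all DA-only regions.
Lpl DA-only region: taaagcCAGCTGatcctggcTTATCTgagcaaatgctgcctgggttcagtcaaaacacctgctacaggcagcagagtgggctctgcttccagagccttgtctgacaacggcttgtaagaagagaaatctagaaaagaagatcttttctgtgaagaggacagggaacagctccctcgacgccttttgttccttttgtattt
For comparison, the 150 bases before the start of the coding transcript Lpl-001, chr8:71404240-71404389 on the plus strand, hold the word TATAAA on the other strand (TTTATA, capitals), close to the start. This word occurs on either strand in 6.35% of the 45962 windows of the same length before the starts of coding transcripts.
Lpl coding promoter: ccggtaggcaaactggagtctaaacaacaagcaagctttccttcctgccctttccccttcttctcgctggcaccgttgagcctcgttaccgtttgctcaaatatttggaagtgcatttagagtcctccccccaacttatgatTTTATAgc
In base composition, the centre of the DA-only region had 47.5% G and C, near the median of all DA-only regions (48%). The ratio of observed to expected CpG, taken over the whole region and not its centre, was 0.249 (median 0.232). The central 200 bases of the all-library region at the coding start, which lie downstream of that start, had 58% G and C. The median of all-library regions was 60.5%. Over the whole of the region at the coding start the CpG ratio was 0.574, near the median of all-library regions (0.610). The 150 bases before the coding start, shown above, had 48% G and C, close to the centre of the DA-only region.

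Lipc encodes hepatic lipase. No region overlapped a promoter of its annotated transcripts, and no region of its window had a peak in a 5-HT library. Of all regions in the map, 67.5% had no 5-HT peak. The highest-scoring Lipc region, chr9:70811259-70811477, lay 11.3 kb upstream of the gene start with scores of 5.04, 7.54 and 7.96 for DA (mean 6.84 ± 1.58, SD, n = 3) and 0 in both 5-HT libraries. At equal peak numbers it was found in 2 DA libraries and was no longer DA-only. A further DA-only region, chr9:70699303-70699701, 100.5 kb into the gene and at the annotated promoter of the neighbouring gene Gm3436, had scores of 3.78, 3.10 and 3.30. The lowest scores that any peak had in the DA libraries were 3.45, 3.04 and 3.03. The percentiles of this region were 16.1, 3.74 and 24.7. The other 5 Lipc regions were intronic and had scores between 3.08 and 5.13 in DA replicate 2, and none of them had a peak in DA replicate 1.

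Lipg encodes endothelial lipase, which acts mainly on phospholipids of high-density lipoproteins. Its promoter region, chr18:75120856-75122155, had a score of 3.70 in DA replicate 2 and 3.75 in 5-HT replicate 1, and 0 in the other libraries. The intronic region chr18:75116270-75116726 had scores of 0, 5.11 and 4.23 for DA and 4.23 and 3.91 for 5-HT. It was the only Lipg region with a peak in both 5-HT libraries. No Lipg region was DA-only (0 of 7), and none had a peak in DA replicate 1. The groups overlapped at each Lipg region with a 5-HT peak, by score and by percentile.

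Lrp1 encodes a large endocytic receptor for many ligands, among them lipoprotein remnants that carry Apoe. The region over its coding start, chr10:127056959-127059540, had scores of 3.55, 4.67 and 3.58 for DA and 4.49 and 3.38 for 5-HT. The DA and 5-HT scores overlapped, and the percentiles (7.81, 54.1 and 37.7 for DA, 50.3 and 36.0 for 5-HT) did so too. At equal peak numbers this region had a peak in 2 5-HT libraries and 0 DA libraries.

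Inside Lrp1, 3 regions were DA-only. The region chr10:126974857-126975427, over the end of the gene and its exon 89, the last, had scores of 5.79, 6.35 and 5.26 for DA. The intronic region chr10:127006653-127006914 had scores of 4.64, 4.83 and 6.01, and the region chr10:126992775-126993069, which touches exons 54 and 55, had 3.67, 3.15 and 3.50. The percentiles of the last region ran from 6.94 to 34.3, and those of the others from 40.4 to 76.1. All 3 lost the DA-only call at equal peak numbers. Of the other 12 Lrp1 regions, 9 had peaks in fewer than 3 DA libraries and no 5-HT peak, and 3 had a peak in 5-HT replicate 1. Toward the downstream end, the promoter region of the neighbouring gene Shmt2 had scores of 4.90, 6.40, 6.00, 4.89 and 0.

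Vldlr encodes the very low density lipoprotein receptor. Its promoter region, chr19:27290910-27293754, had scores of 5.98, 8.71 and 7.17 for DA (mean 7.29 ± 1.37, SD, n = 3) and 4.88 and 3.29 for 5-HT. It had a peak in all 5 libraries also at equal peak numbers. Every DA score lay above both 5-HT scores, and so did the percentiles (62.7, 85.9 and 83.6 for DA, 59.8 and 31.1 for 5-HT). The only other region of the window, downstream at chr19:27334688-27334846, had a score of 4.10 in DA replicate 2 alone. Vldlr thus had few regions for its length.

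Lrp8 encodes the other Reelin receptor beside Vldlr. The region over its main start, chr4:107473981-107476797, had scores of 5.63, 7.87 and 6.23 for DA (mean 6.58 ± 1.16, SD, n = 3) and 4.59 and 3.23 for 5-HT. It kept a peak in all 5 libraries at equal peak numbers, and the DA scores lay above the 5-HT scores, as did the percentiles (58.1, 82.2 and 77.8 for DA, 52.9 and 27.4 for 5-HT). Lrp8 has further annotated starts within the gene. The region at the start of Lrp8-003, a coding transcript, chr4:107501323-107503873, had scores of 4.51, 4.86, 4.65, 4.07 and 3.53. The promoter regions of Lrp8-004 and Lrp8-011, both noncoding, had a peak in every DA library and in 5-HT replicate 1. Their scores there were 3.53, 4.02, 3.83 and 3.42 for Lrp8-004 and 5.45, 4.92, 4.42 and 3.60 for Lrp8-011. The Lrp8-004 region covers the start of its transcript, while the Lrp8-011 region ends upstream of the start of its transcript.

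Of the distal Lrp8 regions, that over exon 3, chr4:107507067-107508914, had scores of 6.15, 8.67 and 7.47 for DA and 3.43 and 2.98 in the 5-HT libraries. The neighbouring region chr4:107509375-107509846 had scores of 6.95, 9.11, 8.21, 5.96 and 0 and was the highest-scoring Lrp8 region outside the promoters of other genes. The DA scores of both regions were above the 5-HT scores. By percentile this held for the region over exon 3 (64.7, 85.7 and 85.1 for DA, 11.5 and 9.72 for 5-HT). At the neighbouring region 5-HT replicate 1 (77.2) lay among the DA libraries (73.3, 87.4 and 88.4). The 2 DA-only regions of Lrp8 were intronic, chr4:107485133-107485352 with 3.82, 4.57 and 4.74 and chr4:107492781-107493287 with 4.62, 4.87 and 3.90. At equal peak numbers neither had a peak in any library. A DA-only region with scores of 4.00, 3.94 and 3.68 lay just outside the window, 21.4 kb before the gene.

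Apoe encodes the apolipoprotein that the LDL receptor family binds. Its promoter region, chr7:20284172-20284787, had scores of 0, 3.12 and 3.33 for DA and 0 in both 5-HT libraries. The region chr7:20286411-20286652, 2.02 kb upstream, was DA-only with scores of 5.26, 5.84 and 3.23 (mean 4.78 ± 1.37, SD, n = 3), and had no peak in any library at equal peak numbers. By far the highest scores of the window, 27.0, 41.6, 29.6, 15.2 and 15.3 at chr7:20300336-20301832, belonged to the promoter of the neighbouring gene Tomm40. No region lay in the 20 kb downstream of Apoe.

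**Figure D3:**
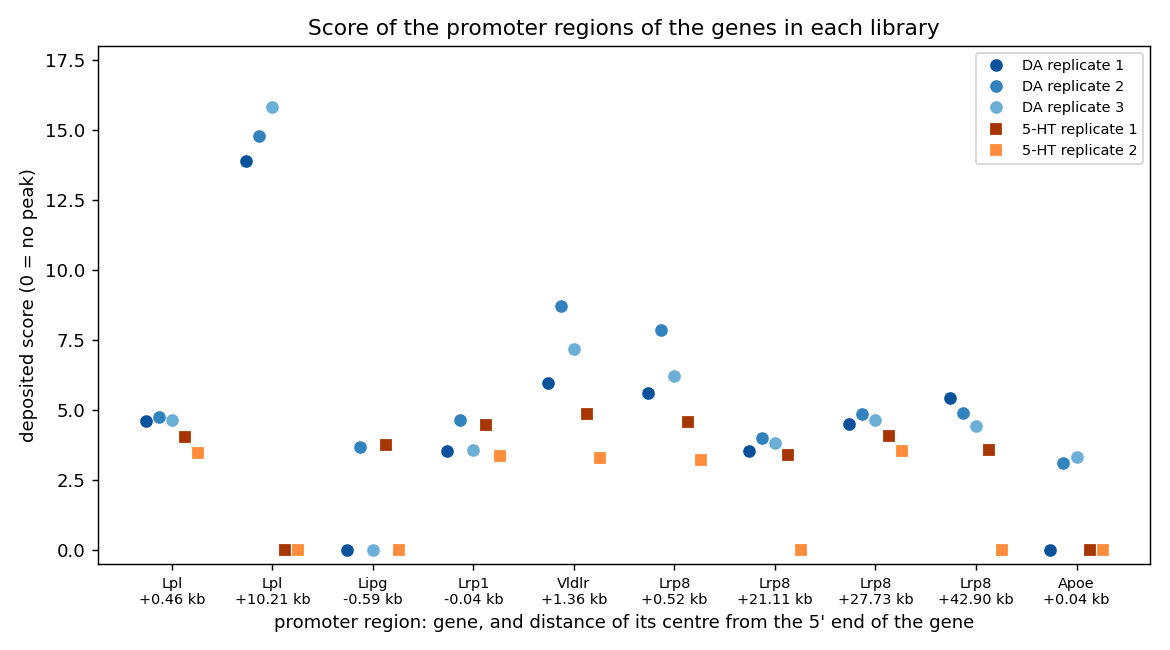
Deposited score (y axis) of the 10 promoter regions in each of the 5 libraries, circles for DA and squares for 5-HT, with the distance of the region centre from the 5′ end of the gene under each gene name. The Lpl region at 10.2 kb reaches 13.9 to 15.8 for DA and 0 in the 5-HT libraries, while the other promoter regions stay at or below 8.71.

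The score order of the promoter regions was compared between the groups at the 5 all-library regions. At 4 of the 5, the lowest DA score was above the highest 5-HT score, against 88.8% of all all-library promoter regions. By percentile within the library this held at 2 of the 5 (Vldlr and the main Lrp8 start), against 56.6%. For the coding promoter of Lpl the percentiles were 39.9, 55.3 and 61.7 for DA and 36.5 and 40.8 in the 5-HT libraries, and the groups overlapped. With the internal Lrp8 starts left aside, the promoter scores within DA replicate 1 ran from Lpl (internal start, 13.9) through Vldlr (5.98), the main Lrp8 start (5.63) and the Lpl coding start (4.62) to Lrp1 (3.55), with Lipg and Apoe at 0. These 5 regions had the same order in DA replicates 2 and 3, where Lipg had 3.70 and 0 and Apoe had 3.12 and 3.33. In 5-HT replicate 1 the scores ran from Vldlr (4.88) through the main Lrp8 start (4.59), Lrp1 (4.49) and the Lpl coding start (4.05) to Lipg (3.75), with Apoe at 0. In 5-HT replicate 2 the order was another, from the Lpl coding start (3.48) through Lrp1 (3.38) and Vldlr (3.29) to the main Lrp8 start (3.23), with Lipg and Apoe at 0. The 5-HT libraries thus gave no common order, and with 3 and 2 libraries an exact two-sided permutation test could not go below p = 0.1.

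Words for binding sites were searched on both strands in the central 200 bases of each region. The nuclear receptor half-site AGGTCA was in 7 of the 61 regions (11.5%), against 10.7% of all 131942 regions. Of the 9 DA-only regions of the genes 4 held it, against 12.4% of all DA-only regions, and these lay at Apoe, Lrp8 and, for a pair of them, Lrp1. It was the highest such count of the 12 words searched, and it was singled out after the counts were seen. CAGCTG was in 3 of the 9, against 23.9% of all DA-only regions. The E-box CATCTG, the GATA core and the TATA box were in 1 each, against 22.9%, 10.5% and 9.59%. The other 7 words were in 0, against 3.55% to 23.9% of all DA-only regions, depending on the word. The longer word AAAGGTCA (NBRE, the monomer site of Nr4a receptors), which contains AGGTCA, was in 0 of the 61 regions, against 1.88% of all regions. The E-box CAGCTG was in 12 regions (19.7%, against 18.9%) and CATCTG in 13 (21.3%, against 19.5%). The GC box GGGCGG was in 5 regions (8.2%, against 9.73%), the homeodomain core TAATTA in 3 (4.92%, against 6.37%), and the SOX words ACAAAG and ACAATG in 6 regions each (9.84%, against 17.5% and 10.5%). The forkhead core TGTTTAC was in 2 regions (3.28%, against 3.82%), AGATAA in 4 (6.56%, against 9.21%), TATAAA in 3 (4.92%, against 8.49%) and CCAAT in 16 (26.2%, against 24%).

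The 4 DA-only regions with AGGTCA are shown around the word, each on the strand of its gene, with the word (or its reverse complement TGACCT) in capitals and up to 20 bases on each side, because no other word searched was in as many DA-only regions of the genes. They lie in mm9 at chr7:20286451-20286496 (minus strand, upstream of Apoe), chr10:126992978-126993022 (minus strand, Lrp1, between exons 54 and 55), chr10:127006819-127006864 (minus strand, intron of Lrp1) and chr4:107493051-107493096 (plus strand, intron of Lrp8).
Apoe upstream: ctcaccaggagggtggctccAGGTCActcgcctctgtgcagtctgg
Lrp1 between exons: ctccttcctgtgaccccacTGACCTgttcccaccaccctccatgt
Lrp1 intron: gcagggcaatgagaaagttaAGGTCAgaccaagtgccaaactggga
Lrp8 intron: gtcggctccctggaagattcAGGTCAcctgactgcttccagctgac
The bases on either side of the word differed between the 4 regions.

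Other genes of lipoprotein metabolism were taken from lists and looked up at their promoters, to be read against the 65.1%, 3.57% and 48.3% of protein-coding genes with any, a DA-only and an all-library promoter region. Of 11 partners of lipoprotein lipase, 6 had a promoter region, 1 of them (Furin, a protease that cleaves lipases) DA-only with scores of 3.87, 4.53 and 4.20, and 3 (Lmf1 and Sel1l among them) all-library. Lmf1, which is needed to fold lipases, had scores of 8.21, 13.5, 10.5, 5.50 and 4.19, and Sel1l had 24.9, 24.7, 26.0, 15.6 and 13.6. Gpihbp1, which carries the lipase onto capillaries, had no promoter region in any library.

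Of 12 other genes for lipases and fatty acid uptake, 12 had a promoter region, 0 a DA-only one and 8 an all-library one, for example the fatty acid transporter gene Slc27a1 with scores of 9.62, 19.7, 13.6, 6.56 and 4.07. Of 11 other members of the LDL receptor family, 11 had a promoter region, 0 a DA-only one and 7 an all-library one. Of 13 genes of the Reelin pathway and receptor adaptors, 13 had a promoter region, 0 a DA-only one and 10 an all-library one. A promoter region of Reln, which encodes the ligand of Vldlr and Lrp8, had scores of 5.23, 7.68, 6.52, 4.40 and 3.04. A promoter region of Dab1, the intracellular adaptor of these receptors, had 4.59, 6.12, 4.43, 4.29 and 3.52. Another Dab1 promoter region had 5.24, 5.64, 5.04, 3.94 and 0. Of 17 other apolipoprotein and cholesterol transport genes, 9 had a promoter region and 8 an all-library one, and 1 (Srebf1) had DA-only regions beside its all-library region. Apob, Apoa1 and Apoc1 had no promoter region in any library.

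The genes whose promoter regions were most like the Lpl DA-only region were found among 14558 other genes with a promoter region, by the mean absolute difference in percentile over the 5 libraries. They were Tnfsf15 (2.14 percentage points), Upp1 (2.94), Tyrp1 (2.95), Magohb (3.10) and Med16 (3.67). The region of Tnfsf15 had scores of 9.99, 12.8 and 12.2 for DA and 0 in both 5-HT libraries. That of Med16 had weak peaks in the 5-HT libraries too, with 9.85, 11.1, 10.7, 3.37 and 2.87. Th, which drives the reporter of the DA sort, came next (4.36), with scores of 9.91, 10.6 and 8.45. All of them had lower scores than Lpl in each DA library.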

How the data were processed

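ATAC-seq peaks of 3 DA and 2 5-HT libraries were used, and the 6 RNA-seq samples of the series were not analysed here. The authors used Trimmomatic for trimming, Bowtie2 for alignment to mm9, Picard for duplicates and MACS2 for peaks, and joined nearby peaks. Versions are not given in the sources used here, nor is any shift of reads for the transposase. The deposited values are a score for each library over the same 131942 regions, whose scale is not named, and the columns for signal, p and q hold -1. In 1 line a misspelled chromosome name was read as Y. Regions were joined to genes of GENCODE vM1 (mm9) by an overlap of at least 1 bp with Python 3.11.15 and pandas 2.3.3, and sequences were read from the mm9 genome. Promoters ran from 1 kb before a TSS to 100 bp after it. The members and lists were chosen with earlier results of these data known. Named genes were all 7 members, up to 4 genes of each pathway list (DA-only first), markers and the 5 genes closest to the Lpl region. Th and the flanking regions were added after their values were seen. No test was made, since the contrast chose the genes. The steps were tested on simulated data. Alternatives were other windows, equal peak numbers, the 10000 highest peaks, other promoter definitions and leaving out each library.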

Additional observations from a re-analysis of the deposited data

How the results depend on the processing

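The number of regions at the genes was 61, and it was 40 with a window of 0 kb and 96 with 50 kb. At 50 kb there were 16 all-library regions (16.7%, against 12.8% of all regions). The 9 DA-only regions fell to 1, the Lpl region, at equal peak numbers and with the 10000 highest peaks, and the all-library regions were 5 and 1 at these settings. They were counted over the 20 and 6 regions left, against 6.94% and 4.17% DA-only and 27% and 26.9% all-library over all regions left. With a peak in at least 2 DA libraries there were 18 DA-only regions (29.5%, against 27.8% of all regions). Leaving out each library in turn gave 9 to 16 DA-only regions, with 16 without DA replicate 1 (27.1%, against 25.5%) and 14 without 5-HT replicate 1 (23.7%, against 21.6%), and 9 to 14 all-library regions, with 14 without 5-HT replicate 2 (23.0%, against 20.5%). The shares over all regions thus moved alongside. Genes with a DA-only promoter region numbered 1 to 2 when each library was left out, with Apoe added without DA replicate 1 and Lrp8 without 5-HT replicate 1, where the share of all genes was 5.71% and 12.7%, up from 3.57%. They were 2 (Lpl and Apoe) with a promoter of 2 kb upstream to 500 bp downstream (4.96% of all genes) and 0 with coding transcripts only, since the DA-only Lpl region lies at a noncoding start. The number of promoter regions with DA scores above the 5-HT scores was 4 by score and 2 by percentile. Of 33 alternatives 17 stayed within 1.5 times the main value. No paired analysis was possible because the results come from no test, and neither labels nor methods pair a DA sort with a 5-HT sort. The peak lists hold no read counts, so a score of 0 can mean closed chromatin or too few reads, and these cannot be told apart.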

Other observations

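Around Lpl, within 150 kb on either side of the gene, the map held 26 regions. Of these, 1 was DA-only, that in the Lpl intron, against 13.4% of all regions in the map. Another 3 were all-library, against 12.8% of all regions. The other 2 all-library regions were the promoters of Csgalnact1, with scores of 5.79, 6.58, 6.52, 4.62 and 3.87 in the order of libraries used above, and of Ints10, with 14.4, 14.5, 16.7, 10.2 and 6.00. The Ints10 promoter had DA scores like those of the Lpl intron region and a peak in both 5-HT libraries as well. Between these genes, the region chr8:71290655-71291019 had scores of 10.9, 8.76 and 10.0 in the DA libraries, 6.91 in 5-HT replicate 1 and 0 in 5-HT replicate 2. On the other side, toward Slc18a1, which encodes a vesicular monoamine transporter, the region chr8:71547156-71547615 had scores of 0, 9.52, 8.40, 5.21 and 0.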
